A study of Mus musculus with 4 samples.

Results

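The biliary keratins examined here are 7 genes, Krt7, Krt8, Krt18, Krt19, Krt20, Krt23 and Krt78, of 50766 genes in the count table and of 56 with a keratin name. They were chosen by name, and Krt78 and Krt23 were selected on their measured presence in only a part of the biliary cells of these data, so that their uneven presence among cells is given below as a description without a test. The cells came from the livers of 4 mice, each giving 1 library, and are labelled as biliary epithelial cells (BECs), the lining of the bile ducts. The genotype of all 4 mice, controls included, is given as Sox9EGFP, a reporter in which regulatory sequence of the transcription factor Sox9 drives a green fluorescent protein. In 2 mice (BDL) the bile duct had been tied off 7 days earlier, and 2 mice (sham) had undergone a sham operation 7 days earlier. Age, sex and strain are not given in the sources used here. The comparison asks how the state of BECs differs between the ligated and the sham-operated liver.

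Keratins build the intermediate filaments of epithelial cells, and every filament needs a type I and a type II partner. Hepatocytes use the pair Krt8 (type II) and Krt18 (type I), while bile duct cells add Krt7 (type II) and Krt19 (type I), which serve as standard markers of biliary cells. Krt20 is a type I keratin of gut and bladder lining, Krt23 a type I keratin described as stress-inducible in the ductular cells of the liver, and Krt78 a type II keratin best known from stratified epithelia.

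BEC-like cells were 11019 of the 12183 cells kept and each of their 12 clusters was led by 8 or more of the 11 biliary markers, none of them a keratin. The 4 libraries shared 0 cell barcodes and held 2623 and 2594 BEC-like cells (sham) and 1972 and 3830 (BDL). The median depth was 3298 and 2762 unique transcripts (UMIs) per BEC-like cell after sham surgery and 7128 and 7876 after ligation. Different clusters held most of the class in the 2 groups, with Kcnma1-led cells from the sham and Nos2-led cells from the BDL libraries among the largest. A group name inside the cell tables contradicts the sample label for sham replicate 2, where it reads BDL, and for BDL replicate 2, where it reads sham. Groups below follow the labels, and values without these libraries are given beside the results they change.

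The bases upstream of the start sites are shown for the pair without a called difference (Krt8, Krt18) and for the type II members that moved most in opposite directions (Krt7, Krt78). Each run is the 250 bases before the start on the gene's strand, 5′ to 3′, from RefSeq on GRCm38.p6, a build older than the GRCm39 named in the submitters' processing notes. Capitals mark matches to 1 of 5 motifs searched on both strands. The windows lie at chr15:101412153-101412402 (Krt7, plus strand), chr15:101954288-101954537 (Krt78, minus strand), chr15:102004343-102004592 (Krt8, minus strand) and chr15:102027966-102028215 (Krt18, plus strand). Krt8 and Krt78 are neighbours on the same strand, and Krt8 and Krt18 are neighbours that start away from each other.
Krt7: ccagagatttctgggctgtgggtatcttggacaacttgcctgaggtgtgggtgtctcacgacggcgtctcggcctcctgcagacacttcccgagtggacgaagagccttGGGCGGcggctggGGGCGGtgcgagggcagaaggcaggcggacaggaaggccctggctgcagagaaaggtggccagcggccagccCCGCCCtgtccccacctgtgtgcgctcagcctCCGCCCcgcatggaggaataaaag
Krt78: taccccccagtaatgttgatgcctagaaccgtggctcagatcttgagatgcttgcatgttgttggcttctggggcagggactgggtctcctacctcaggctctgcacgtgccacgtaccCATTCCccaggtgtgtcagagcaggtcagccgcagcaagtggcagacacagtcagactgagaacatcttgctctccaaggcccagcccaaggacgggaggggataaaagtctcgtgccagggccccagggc
Krt8: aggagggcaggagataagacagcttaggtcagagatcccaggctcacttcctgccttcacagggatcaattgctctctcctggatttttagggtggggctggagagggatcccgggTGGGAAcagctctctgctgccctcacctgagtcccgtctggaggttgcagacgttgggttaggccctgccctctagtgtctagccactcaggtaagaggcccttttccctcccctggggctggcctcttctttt
Krt18: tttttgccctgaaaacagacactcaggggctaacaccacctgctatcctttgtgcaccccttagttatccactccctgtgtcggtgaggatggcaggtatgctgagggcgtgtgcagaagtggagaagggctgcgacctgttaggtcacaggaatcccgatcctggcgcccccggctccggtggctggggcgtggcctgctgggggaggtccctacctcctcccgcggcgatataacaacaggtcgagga

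The motifs were the TATA box (TATAAA), the GC box (GGGCGG), AP-1 (TGANTCA, where N is any base), TEAD (GGAATG) and RBPJ (TGGGAA). Matches of different motifs did not overlap in these windows. Krt7 held 4 GC boxes, a motif in 32.7% of 32851 promoter windows of the same length. Krt78 held 1 TEAD match, found in 12.6% of windows, and Krt8 held 1 RBPJ match, found in 21.6%. Krt18 held none of the 5. The promoter table used here held a window for 6 of the 7 members, Krt19 not among them. Of those not printed, Krt20 held a TATA box (12.4% of windows) and 3 TEAD matches, 2 of which share a base, and Krt23 held none. AP-1, in 6.75% of windows, was in none of the 6. Such matches describe letters only.

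Krt18 and Krt8 were the most abundant keratins of BEC-like cells in every library. Levels are in CPM, a gene's counts scaled to a fixed library total, and between genes they are compared per kilobase of transcript. In the sham libraries the group means were 906 CPM per kilobase for Krt18, 625 for Krt8, 235 for Krt19, 106 for Krt78, 47.8 for Krt23, 17.7 for Krt7 and 4.37 for Krt20. In the BDL libraries the order was Krt18 (871), Krt8 (564), Krt19 (343), Krt23 (69.6), Krt7 (43.5), Krt78 (22.6) and Krt20 (3.64). Krt78 thus stood above Krt23 and Krt7 in the sham and below both in the BDL libraries. In the BDL libraries Krt23 stood above Krt7 only per kilobase, as the means without division by length were 109 and 178 CPM. Counts were primed at random sites and at poly(A) tails, and whether division by length suits both was not tested. Within each group both libraries gave the same order per kilobase, with no overlap between neighbouring genes. The 7 members took 98.6% of all keratin UMIs in BEC-like cells, and 44 keratin genes had at least 1 UMI there. Of the keratins outside the list, Krt17, a keratin of stressed and wounded epithelia, and Krt80 alone reached 20 CPM in a library, Krt80 with 20.1 CPM in BDL replicate 2 on the TMM scale (19.88 CPM unscaled).

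After ligation, Krt7 and Krt23 were higher and Krt78 was lower in BEC-like cells, while Krt8 and Krt18 overlapped between the groups and were not called. By edgeR's quasi-likelihood test on counts summed per library, 3 of the 7 members passed an adjusted p of 0.05, against 27.1% of all 16044 genes tested. Of all genes, 14.2% rose after ligation and 12.9% fell. The 2 sham and 2 BDL libraries did not overlap for 5 of the 7 members, against 68.8% of all genes. The levels that follow are CPM scaled by the TMM method.

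**Figure D1:**
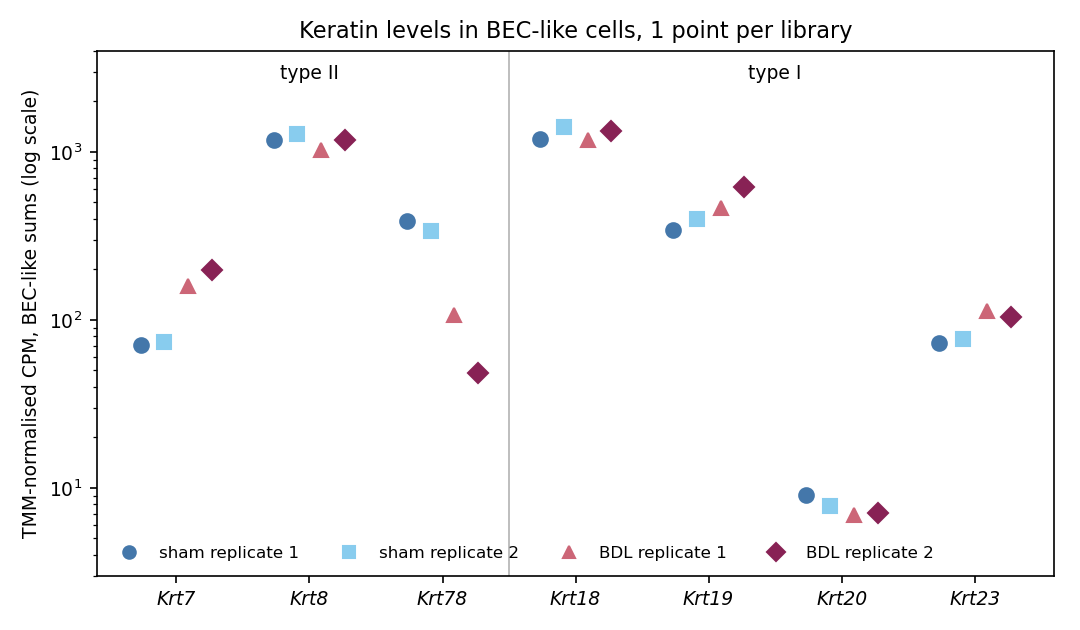
TMM-normalised CPM of the 7 keratins in BEC-like cells (log axis), 1 point per library, with the type II genes left and the type I genes right of the line. Krt7 was at 71.2 and 73.5 CPM in the sham and at 159 and 198 in the BDL libraries, Krt78 at 389 and 337 against 107 and 48.4, and the points of Krt8 and Krt18 overlap between the groups.

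Of the type II genes, Krt7, the biliary partner of Krt19, measured 71.2 and 73.5 CPM after sham surgery and 159 and 198 CPM after ligation. Both BDL libraries were above both sham libraries. The group means were 72.3 ± 1.63 and 178 ± 27.6 CPM (SD, n = 2 each), a 2.46-fold rise (log2 fold change 1.30, SE 0.14, edgeR adjusted p = 0.00146). With 1 library left out the log2 fold change of Krt7 was 1.14 to 1.48. It was called in 7 of the 8 sublibraries taken alone, the exception giving 0.64 on the log2 scale (edgeR adjusted p = 0.190). Sublibraries split the cells of the same 4 mice and are not separate replicates. For sham replicate 1 and BDL replicate 1, the pair with no conflict between label and cell table, the ratio was 2.23.

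Krt78 measured 389 and 337 CPM after sham surgery and 107 and 48.4 CPM after ligation. The 2 BDL libraries differed from each other by more than the 2 sham libraries did, and both were below them. The means were 363 ± 37.2 and 77.6 ± 41.2 CPM (SD, n = 2 each), 4.68-fold lower after ligation (log2 fold change -2.24, SE 0.34, edgeR adjusted p = 0.00531). The fall was called with each library left out, with log2 fold changes from -2.88 to -1.76, and in all 8 sublibraries. Between sham replicate 1 and BDL replicate 1, the libraries without a conflicting group name, Krt78 was 3.65-fold lower after ligation.

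The summed level of the 10 listed hepatocyte markers in BEC-like cells was 1540 and 1610 CPM after sham surgery and 342 and 362 CPM after ligation. Albumin (Alb) at 854 and 991 against 71.1 and 46.9 CPM, Ttr at 254 and 185 against 46.3 and 38.9 CPM and Hnf4a at 380 and 384 against 189 and 238 CPM made up most of that difference. Serpina1c did not follow it (14.04 and 15.8 against 14.7 and 17.02 CPM), and Cyp2e1 was at 0 in both sham libraries. Hepatocyte-like cells held 33 Krt78 UMIs in all, of which 22 came from the 7 cells of BDL replicate 1 (322.3 CPM), with 21.84 CPM in the 36 cells of sham replicate 2 and 32.97 CPM in the 34 cells of BDL replicate 2. The 6 mesothelial markers, listed because mesothelium also makes keratins, summed to 334 and 277 against 93.8 and 102 CPM. Gpm6a gave most of that (318 and 250 against 62.8 and 43.7 CPM), while Msln ran the other way (10.04 and 17.9 against 23.97 and 54.2 CPM) and Upk3b was at 2.25 CPM or less. The 11 mesenchymal markers summed to 106 and 105 against 17.4 and 31.7 CPM. The 9 endothelial markers summed to 45.9 and 48.6 against 23.4 and 11.9 CPM. The part of hepatocyte, mesothelial, mesenchymal or endothelial RNA in the keratin differences was not tested.

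Krt8, the general type II keratin of liver epithelium, measured 1178 and 1270 CPM after sham surgery and 1032 and 1178 CPM after ligation. The groups overlapped, and the difference was not called (log2 fold change -0.15, SE 0.13, edgeR adjusted p = 0.430). Krt18, its type I partner, was at 1199 and 1404 against 1176 and 1326 CPM, again overlapping (log2 fold change -0.06, SE 0.14, edgeR adjusted p = 0.785). The sign of the Krt18 value turned under 3 alternatives, none of them called.

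These are shares of each library's transcripts, and the deeper BDL cells also held more UMIs of both genes. Krt8 averaged 4.64 and 3.94 UMIs per BEC-like cell after sham surgery and 7.59 and 9.79 after ligation, and Krt18 averaged 4.72 and 4.35 against 8.65 and 11.0. Krt78 was lower after ligation on this scale too, at 1.53 and 1.04 against 0.784 and 0.402 UMIs per cell. Whether the depth per cell reflects RNA content or recovery was not tested.

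Krt19, the biliary type I keratin, measured 341 and 400 CPM after sham surgery and 466 and 616 CPM after ligation, and the groups did not overlap. The means of 370 ± 41.8 and 540 ± 106 CPM (SD, n = 2 each) gave a log2 fold change of 0.55 (SE 0.17) that just missed the threshold (edgeR adjusted p = 0.0507). Leaving out BDL replicate 1 brought the adjusted p of Krt19 in edgeR to 0.000846, and leaving out sham replicate 1 to 0.236. Of the libraries with a conflicting group name, leaving out BDL replicate 2 brought the log2 fold change of Krt19 to 0.34 (edgeR adjusted p = 0.127) and leaving out sham replicate 2 to 0.69 (edgeR adjusted p = 0.102). DESeq2 gave Krt19 an adjusted p of 0.00747 and called 22.1% of all genes. The ratio of BDL replicate 1 to sham replicate 1 was 1.37.

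Krt23 measured 72.6 and 77.0 CPM after sham surgery and 113 and 104 CPM after ligation. Replicates lay close together in both groups. The rise was 1.46-fold (log2 fold change 0.54, SE 0.11, edgeR adjusted p = 0.0151), and the ratio of BDL replicate 1 to sham replicate 1 was 1.56. The call was lost without sham replicate 1 (edgeR adjusted p = 0.116) and without sham replicate 2 (edgeR adjusted p = 0.0794), and it held in 3 of 8 sublibraries. Of the other 5, 1 had a negative value of -0.18 for Krt23.

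Krt20 measured 9.01 and 7.83 CPM after sham surgery and 6.90 and 7.13 CPM after ligation (log2 fold change -0.27, SE 0.20, edgeR adjusted p = 0.359). Pooled over libraries it was at 7.43 CPM in BEC-like cells and at 8.60 CPM in mesenchymal-like cells, which should lack it. Its level in BEC-like cells was therefore read as background and not as expression. Krt17, outside the list, rose from 8.62 and 8.45 to 24.2 and 22.3 CPM (log2 fold change 1.44, edgeR adjusted p = 0.00172).

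The balance of the 2 keratin types differed with these genes. Over the 7 members, the ratio of type II to type I UMIs was 1.01 and 0.890 (sham) against 0.736 and 0.694 (BDL). Per kilobase of transcript the same ratio was 0.664 and 0.595 against 0.502 and 0.480. The ratio of Krt8 to Krt18 alone was 0.721 and 0.664 against 0.644 and 0.652 per kilobase. The shares that follow are of UMIs, without division by length. Krt78 made up 23.8% and 20.04% of the type II UMIs in the sham and 8.22% and 3.40% in the BDL libraries. Krt7 made up 4.34% and 4.37% against 12.2% and 13.9%. Among the type I genes the share of Krt19 was 21.01% and 21.2% against 26.4% and 29.98%. The members together took 0.345% and 0.341% of all UMIs in the sham and 0.303% and 0.344% in the BDL libraries, so the total overlapped between the groups while its make-up did not.

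Other cell classes of the libraries held keratins too, given here in CPM without TMM scaling. Hepatocyte-like cells numbered 36 in sham replicate 2 and 34 in BDL replicate 2, and 2 and 7 in the other libraries. In sham replicate 2, Krt8 was at 364.1 CPM in hepatocyte-like and 1212 CPM in BEC-like cells, and Krt18 at 524.3 and 1340 CPM. In BDL replicate 2, Krt8 was at 1154 CPM in hepatocyte-like and 1167 CPM in BEC-like cells, and Krt18 at 1521 and 1313 CPM. The hepatocyte-like levels of Krt8 and Krt18 thus differed between these libraries, and that difference was not tested. These are the 2 libraries whose group name in the cell tables contradicts the label. Krt19 was at 43.69 and 24.73 CPM in the hepatocyte-like cells of the same libraries and Krt7 at 7.282 CPM (1 UMI) and 0, which allows up to 12.4 CPM. Pooled over libraries, in 13 tuft-like cells (chemosensory epithelial cells) Krt18 reached 1981 CPM and Krt8 1263 CPM. These pooled values, from 13 cells of which 9 came from BDL replicate 2, carry no replicate error. In the 807 mesenchymal-like cells Krt8 was at 74.78 and 187.2 CPM after sham surgery and 40.90 and 82.25 CPM after ligation, and Krt18 at 47.08 and 214.1 against 33.11 and 102.1 CPM. Sham replicate 2 was the highest for both genes. Pooled over libraries, mesenchymal-like cells held Krt7, Krt8, Krt18, Krt19 and Krt23 at 8.13% to 9.96% of the BEC-like level, and Krt78 at 16.0%. The part of RNA carried over from other cells in these levels was not tested.

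For a comparison at equal depth, cells were thinned to 1000 UMIs apiece, which dropped 85 and 108 shallower sham cells and 0 BDL cells. At that depth 65.8% and 65.0% of sham BEC-like cells and 58.8% and 66.4% of BDL BEC-like cells had a UMI of Krt8. For Krt18 the shares were 66.8% and 69.5% against 66.5% and 72.0%. Krt19 was seen in 27.0% and 26.8% of sham cells and in 34.5% and 42.6% of BDL cells, a difference of 11.6 percentage points that was 7.62 points without BDL replicate 2. Krt7 was seen in 8.04% and 6.60% against 14.0% and 17.3%, a difference of 8.35 points. For both genes the groups did not overlap (exact permutation p = 0.33, two-sided, the smallest that 2 against 2 libraries allow). Without thinning the Krt7 shares were 21.2% and 17.1% against 56.4% and 65.9%.

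As a description, Krt78 was seen in 24.6% (exact Clopper-Pearson 95% interval 22.9 to 26.3) and 20.6% (19.0 to 22.2) of thinned sham cells. In the BDL libraries it was seen in 9.18% (7.94 to 10.5) and 3.97% (3.37 to 4.64). Unthinned, the shares were 43.1% and 37.7% against 30.1% and 19.4%. Krt23 was seen in 6.78% and 6.84% of thinned sham cells and in 9.28% and 8.51% of BDL cells. Krt20 was seen in 0.761% to 0.940% of BEC-like cells and in 1.10% to 1.52% of mesenchymal-like cells. In mesenchymal-like cells the share was at most 1.89% for Krt78 and Krt7 and 1.10% for Krt23. Their median depth was 3243, 2284, 6294 and 7324 UMIs. Intervals cover counting error only.

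**Figure D2:**
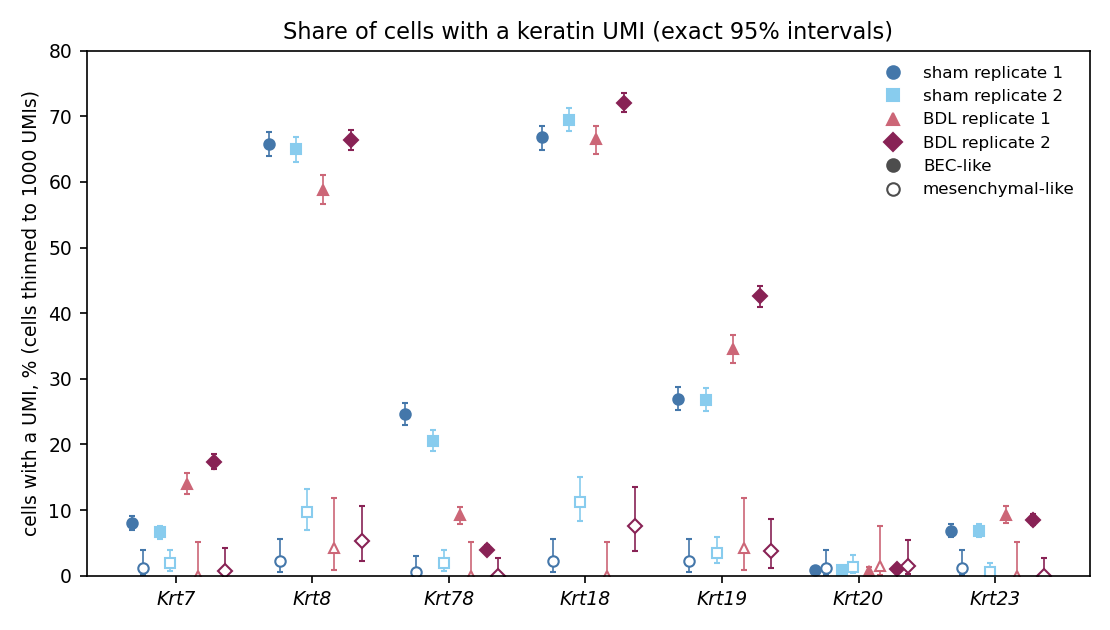
Percentage of cells with at least 1 UMI of each keratin after thinning every cell to 1000 UMIs, by library, in BEC-like (filled) and mesenchymal-like cells (open), with exact 95% intervals that cover counting error only. Krt78 was in 24.6% and 20.6% of sham and in 9.18% and 3.97% of BDL BEC-like cells, and the filled and open points of Krt20 lie together.

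The members differed in how evenly BEC-like cells held them. After subtraction of counting noise, the coefficient of variation (CV) of Krt8 over thinned cells was 0.675 and 0.664 after sham surgery against 0.487 and 0.432 after ligation. Krt18 gave 0.686 and 0.620 against 0.376 and 0.398. Krt19 gave 1.26 and 1.13 against 0.655 and 0.606, and Krt7 1.15 and 1.11 against 0.771 and 0.840. These 4 keratins were thus more evenly spread over cells in both BDL libraries than in either sham library. For Krt78 the values were 1.74 and 1.91 against 2.04 and 3.24, and the tenth of sham cells with the most Krt78 held 66.8% and 70.3% of its UMIs. Krt23 gave 1.66 and 2.11 against 1.43 in both BDL libraries. These values are given as descriptions and were not tested.

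BEC-like cells were clustered again without any keratin and without the 6547 genes at an unadjusted p under 0.05 between the groups. This gave 7 subclusters, of which 5 had at least 30 cells in every library and were tested. Subcluster 1 was led by Nos2, Rasal1 and Ptgs2, subcluster 2 by Ankrd1 and Ccn1, subcluster 3 by Fos, Txnip and Jun, subcluster 4 by Dnah12 and Mmp25, and subcluster 5 by Dmbt1. Subcluster 5 was the smallest of those tested, with 44 and 84 sham and 60 and 340 BDL cells. Of the other 2, subcluster 6 held 440 of its 496 cells from sham replicate 2, and subcluster 7, led by Mki67 and Top2a, held 4 sham cells.

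Krt19 showed 2 levels in the sham libraries, and these lay closer together after ligation. It was at 800 and 860 CPM (sham replicates 1 and 2) in subcluster 1 and at 1372 and 888 CPM in subcluster 5. In subclusters 2, 3 and 4 it was at 178 to 234 CPM in the same libraries. In the BDL libraries it was at 556 and 648 CPM in subcluster 1, at 772 and 939 CPM in subcluster 5, and at 352 to 542 CPM in subclusters 2 to 4. Within each library the highest subcluster with at least 30 cells stood 7.71-fold and 4.53-fold above the lowest after sham surgery and 2.19-fold and 2.20-fold after ligation.

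By edgeR within each subcluster, Krt19 rose in 3 of 5, with log2 fold changes of 0.91 in subcluster 2 (adjusted p = 0.000565), 0.97 in subcluster 3 (adjusted p = 0.000486) and 1.20 in subcluster 4 (adjusted p = 0.000320). It was lower without a call in subcluster 1 (-0.45, edgeR adjusted p = 0.0639) and in subcluster 5 (-0.37, edgeR adjusted p = 0.409). The shares of all genes called in subclusters 1 to 5 were 22.6%, 27.9%, 19.98%, 21.8% and 9.01%. The 3 rises of Krt19 were called with each library left out.

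**Figure D3:**
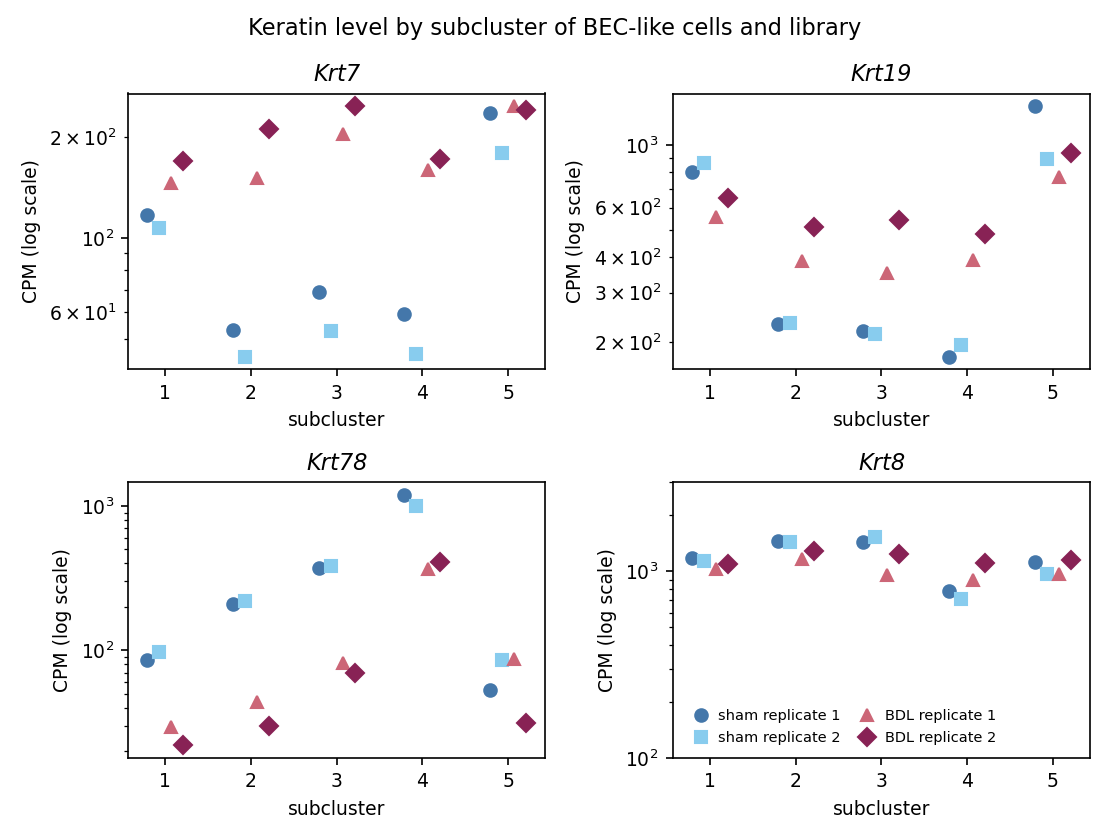
CPM (log axes) of Krt7, Krt19, Krt78 and Krt8 in the 5 tested subclusters of BEC-like cells, 1 point per library. In the sham libraries Krt19 lay at 178 to 234 CPM in subclusters 2 to 4 and at 800 CPM or more in subclusters 1 and 5, and Krt78 was highest in subcluster 4 in each of the 4 libraries.

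In the sham libraries Krt7, like Krt19, was highest in subclusters 5 and 1. It was at 236 and 179 CPM in subcluster 5 and at 117 and 107 CPM in subcluster 1. In subclusters 2 to 4 it lay between 44.1 and 69.0 CPM. In the BDL libraries it was at 146 to 248 CPM in all 5. It rose in 4 of 5 subclusters by edgeR, with log2 fold changes of 1.83, 1.82 and 1.63 in subclusters 2, 3 and 4 (adjusted p = 2.17e-06, 3.66e-07 and 3.38e-05) and 0.52 in subcluster 1 (adjusted p = 0.0223). In subcluster 5, where sham cells held the most Krt7, the value was 0.26 (SE 0.22, edgeR adjusted p = 0.564). The call in subcluster 1 was lost without sham replicate 2 (edgeR adjusted p = 0.0535) and without BDL replicate 2 (edgeR adjusted p = 0.185).

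Krt78 was highest in subcluster 4 in each of the 4 libraries, at 1201 and 995 CPM in the sham and 364 and 407 CPM in the BDL libraries. It was lowest in subcluster 5 in the sham libraries (53.0 and 85.2 CPM, from 9 and 31 UMIs) and in subcluster 1 in the BDL libraries (29.5 and 21.9 CPM). The highest level stood 22.7-fold, 11.7-fold, 12.3-fold and 18.6-fold above the lowest in sham replicates 1 and 2 and BDL replicates 1 and 2. The fall was called by edgeR in subclusters 1 to 4, with log2 fold changes of -1.83, -2.59, -2.43 and -1.53, and was not called in subcluster 5 (-0.58, SE 0.45, edgeR adjusted p = 0.514). The 4 calls held with each library left out. In the sham libraries Krt8 and Krt18 were lowest where Krt78 was highest. In subcluster 4 Krt8 was at 780 and 710 CPM and Krt18 at 827 and 879 CPM.

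Krt8 fell in subcluster 3 alone, from 1433 and 1514 to 951 and 1239 CPM (log2 fold change -0.51, edgeR adjusted p = 0.0258), a call lost without sham replicate 2 (edgeR adjusted p = 0.117) and without BDL replicate 1 (edgeR adjusted p = 0.181). Krt18 was called in 0 of 5 subclusters. Its lowest edgeR adjusted p was 0.0918, at a log2 fold change of -0.40 in subcluster 3. Krt23 was highest in subcluster 5, at 206 and 187 CPM in the sham and 183 and 138 CPM in the BDL libraries. It rose in subclusters 1 (log2 fold change 0.62, edgeR adjusted p = 0.0155) and 2 (0.58, edgeR adjusted p = 0.0134). The first was lost without BDL replicate 1 (edgeR adjusted p = 0.139) and the second without sham replicate 1 (edgeR adjusted p = 0.0732) or sham replicate 2 (edgeR adjusted p = 0.110). Krt20 was tested in 4 subclusters and called in none.

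**Figure D4:**
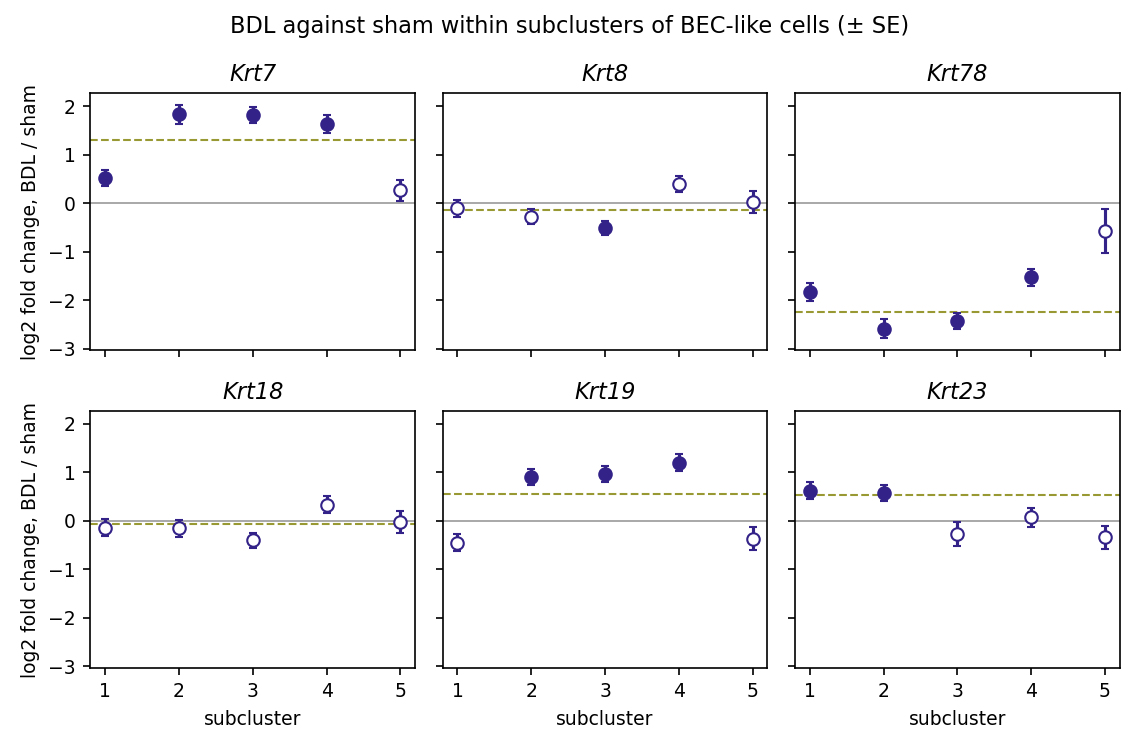
Log2 fold change of 6 keratins, BDL over sham, in each tested subcluster (points, with SE) and over all BEC-like cells (dashed line). Filled points passed an edgeR adjusted p of 0.05. Krt7 and Krt19 rose by 0.91 or more in subclusters 2 to 4, while in subcluster 5, the smallest of those tested, no keratin was called.

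An edgeR model with a term for the difference of the ligation effect between the 5 subclusters, added after these values were seen, found such a difference for 6 of the 7 members, against 14.4% of 13818 genes. Krt78 and Krt23 had been chosen for presence in a part of the cells, and the 14.4% covers genes of all levels. The count and that share are therefore not like for like. The adjusted p was 4.28e-13 for Krt19, 5.05e-10 for Krt7, 1.18e-05 for Krt78, 0.000145 for Krt8, 0.000852 for Krt23, 0.00863 for Krt18 and 0.846 for Krt20. Relative to subcluster 1, the log2 fold change of Krt19 was higher by 1.36 in subcluster 2, by 1.39 in subcluster 3 and by 1.65 in subcluster 4, and by 0.14 in subcluster 5. That of Krt7 was higher by 1.34, 1.29 and 1.13 in subclusters 2 to 4, with a value of -0.25 in subcluster 5. The difference was lost for Krt23 without sham replicate 2 (edgeR adjusted p = 0.144) or BDL replicate 2 (edgeR adjusted p = 0.115), and for Krt18 without BDL replicate 1 (edgeR adjusted p = 0.133) or BDL replicate 2 (edgeR adjusted p = 0.157).

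Over 24 sums of subclusters and libraries, each library centred on its own mean, the members fell into sets. Krt8 and Krt18 had a Pearson correlation of 0.88, and Krt7 and Krt19 of 0.84. Krt78 ran against Krt19 (-0.67) and Krt7 (-0.52), and Krt7 and Krt8 were unrelated (0.03). The sums of a library share its cells and depth, so these values are descriptions without a test. Across single thinned cells of a library the correlation was 0.092 to 0.26 for Krt8 and Krt18, 0.027 to 0.13 for Krt7 and Krt19, and -0.077 to 0.019 for Krt78 and Krt19. Counting noise was not removed from these. Outside the 7 members, the genes whose pattern over the sums was most like that of Krt19 were Zbtb7a (0.97), Onecut2 (0.96), Serpinb1a (0.96), Anxa2 (0.95) and Pdxk (0.95). For Krt7 they were Clip1 (0.95), Arhgef28, Ezr, Lad1 and Sdc1 (0.90 to 0.91). For Krt8 they were Sqstm1 (0.87), Sppl3, Znrf2 and Lonrf1. For Krt18 they were Eif5b (0.87), Ptbp2, Sppl3, Srsf11 and Gnl3.

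For the sparse members, cells with a UMI were set against cells without one, among cells of at least 1000 UMIs. Cells with Krt78 numbered 1112 and 957 in the sham and 594 and 742 in the BDL libraries. The genes highest in them in all 4 libraries were Mmp25, a membrane-anchored metalloproteinase (6.37-fold to 15.9-fold), Fanci, a DNA crosslink repair gene (5.30-fold to 6.70-fold), Zfp13 (5.09-fold to 15.3-fold), Pecam1, 1 of the 9 endothelial markers (4.74-fold to 10.5-fold), and Pde4c, a phosphodiesterase (4.48-fold to 16.7-fold). Mmp25, Pde4c, Zfp13 and Fanci were also among the 10 genes that lead subcluster 4. Zscan10 lies between Zfp13 and Mmp25 on chromosome 17. Tll2, a secreted metalloproteinase, was 4.56-fold and 2.67-fold higher in the Krt78 cells of the sham libraries and 6.39-fold and 7.47-fold higher in those of the BDL libraries. Of 6298 genes, 899 were above 1-fold in all 4 libraries for Krt78, against 389 for Krt23 and 282 for Krt20.

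Among the other members, Krt19 was lower in Krt78 cells than in the rest in the sham libraries (262 against 451 CPM and 285 against 450 CPM), and the ratio was close to 1 in the BDL libraries (0.967 and 0.977). Krt7 followed the same order in the sham libraries, at 64.1 against 85.6 CPM and 51.6 against 84.5 CPM. Krt8 differed little, with ratios from 0.971 to 1.10. Cells with Krt78 were deeper, with medians of 3612 against 3170 UMIs in sham replicate 1 and 8727 against 7694 UMIs in BDL replicate 2. The part of this in the ratios was not tested.

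Cells with Krt23, 477 and 403 in the sham and 784 and 1449 in the BDL libraries, differed less from the rest. The genes highest in them were Ivl, the cornified envelope gene involucrin (1.61-fold to 1.84-fold), Sytl2 (1.48-fold to 1.61-fold), Thbs1 (1.25-fold to 1.39-fold), Rhoj (1.18-fold to 1.33-fold) and 9130230L23Rik (1.17-fold to 1.22-fold). The Krt78 level in Krt23 cells was 0.805 to 0.982 times that in other cells. For Krt20, read as background above, the same rule gave Plscr1l1, Slc10a2, Gm16090, Dhx33 and Scrib, at 1.23-fold or more in each library.

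BEC-like cells with a UMI of Mki67 or Top2a, genes of dividing cells, were compared with the other cells of the same mouse. They numbered 153 and 114 in the sham and 502 and 981 in the BDL libraries. Only 34 and 16 of the sham and 240 and 438 of the BDL cells had 2 or more such UMIs, and no background share was measured, so a single UMI does not show that a cell was cycling. Krt8 was lower in the cells with a UMI in each of the 4 mice, at 1053 against 1205, 1112 against 1296, 949.5 against 1076 and 1074 against 1218 CPM. The log2 difference was -0.19 (SE 0.04, edgeR blocked on the mouse, adjusted p = 0.00808). Krt18 was lower as well, at 1038 against 1230, 1252 against 1431, 1100 against 1220 and 1222 against 1366 CPM (-0.18, SE 0.04, edgeR adjusted p = 0.0137). The other 5 members were not called, with Krt23 nearest at -0.25 (edgeR adjusted p = 0.0558). Of 14646 genes, 2.64% were called and 0.430% were called lower. The calls of Krt8 and Krt18 were lost without BDL replicate 1 (edgeR adjusted p = 0.0660 for each) and without BDL replicate 2 (edgeR adjusted p = 0.161 and 0.182). With at least 2 UMIs of the 2 cycle genes the differences were -0.40 and -0.41, both called. Cells with a UMI were deeper in each library.

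Partners of the keratin filament were taken from 3 lists. Of 15 genes of desmosomes and of linkers between filaments and junctions, 5 were called in BEC-like cells by edgeR, against 27.1% of all genes, with a median log2 fold change of -0.11 against -0.03 over all genes. Dst (0.68, edgeR adjusted p = 0.00989) and Plec (0.48, edgeR adjusted p = 0.0414), which anchor filaments at hemidesmosomes, and the desmosomal cadherin Dsc2 (0.65, edgeR adjusted p = 0.0104) rose. The desmosomal plakins Evpl (-0.88, edgeR adjusted p = 0.0113) and Dsp (-0.47, edgeR adjusted p = 0.0286) fell.

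Of 8 other intermediate filament genes tested, 3 were called (37.5%, against the 27.1% of all genes), with a median of -0.06. Nes, the filament nestin, rose from 4.45 and 4.23 to 31.0 and 35.3 CPM (log2 fold change 2.93, edgeR adjusted p = 0.000356). The nuclear lamin Lmnb1 rose (0.57, edgeR adjusted p = 0.0212) and Lmna fell from 455 and 580 to 284 and 331 CPM (-0.75, edgeR adjusted p = 0.0152). Of 16 keratin modifiers and chaperones, 3 were called (18.8%), with a median of 0.07. The small heat shock protein Hspb1 rose (0.64, edgeR adjusted p = 0.0165). The chaperone Hspa8 (-0.52, edgeR adjusted p = 0.0180) and Sqstm1 (-0.50, edgeR adjusted p = 0.0408), the adaptor p62 that gathers with Krt8 and Krt18 in keratin inclusions, fell. Across the subclusters Sqstm1 was the gene most like Krt8 outside the 7 members.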

How the data were processed

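Per the file headers, the authors deposited raw UMI counts, without normalization. Fixed cells had been barcoded with the Evercode kit, per the labels' protocols, using primers for random sites and for poly(A) tails. The build is GRCm39 per the submitters' processing notes. The aligner, the counting software and the strand setting are not given in the sources used here, so reads of overlapping or near-identical genes may be shared. Each cell's counts summed to the deposited cell table's count in all 12211 cells.

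The members and gene lists were chosen with earlier results of these data known. Cells under 500 UMIs (7) or over 20% mitochondrial counts (10) were left out. Scrublet called 11 doublets (0.0902%), so few that it was taken not to have worked. Clustering (scanpy 1.11.5, leidenalg 0.10.2, resolution 1, 2000 variable genes, 30 components) left out every keratin. A cluster took a class from at least 3 leading markers and, for non-biliary classes, 50% of the list, a rule set after the clusters were seen. Counts summed per library were tested with edgeR 4.0.16 (TMM, its low-count filter, quasi-likelihood F test, Benjamini-Hochberg adjustment), with DESeq2 1.42.0 as an alternative. CPM per kilobase used RefSeq transcript lengths. Labels do not say that mice of a group were independent of each other in handling, and replicate numbers follow sample order and pair nothing. Named genes were the members, other keratins of at least 20 CPM in a library, up to 3 called genes per direction of each partner list, and up to 5 genes most like each member, of which 1 is not reported here.

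On simulated data with 200 changed genes the test of BEC-like sums recovered 94.0% of log2 changes of 2, 40.5% of changes of 1 and 0% of changes of 0.5. In the data this test called 4352 genes, so the simulated recovery does not give its power there. The test of cells with a UMI of Mki67 or Top2a recovered 55.0% of changes of 0.5.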

Additional observations from a re-analysis of the deposited data

Results flagged for a closer look

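The effect of ligation differed between subclusters of BEC-like cells for 6 keratins, by a test of the difference itself (edgeR, all subcluster sums with the library as a block). The adjusted p was 4.28e-13 for Krt19, 5.05e-10 for Krt7, 1.18e-05 for Krt78, 0.000145 for Krt8, 0.000852 for Krt23 and 0.00863 for Krt18. The count was 6 without sham replicate 1, 5 without sham replicate 2 or BDL replicate 1 and 4 without BDL replicate 2, with Krt23 and Krt18 as the genes lost. Krt19 and Krt7 rose most where sham cells held least of them, in subclusters 2 to 4. The fold change contains the sham level it is set against here, so this relation is in part built in and was not tested. Such a difference between subclusters was called for 14.4% of 13818 genes of all levels, and Krt78 and Krt23 had been chosen for presence in a part of the cells. Sums of 1 mouse share their depth and handling, and the model was added after the values were seen. Groups of 2 libraries are too small for a check of single outlying samples.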

How the results depend on the processing

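No paired analysis was possible because the BDL and sham mice compared carry replicate numbers in sample order only. In BEC-like cells edgeR called 4352 genes, 1569 to 6101 with 1 library left out, and 589, 2336, 1852, 2138, 2031, 2024, 2210 and 1849 in sublibraries 1 to 8 alone. Of the 7 keratins 3 were called, 2 to 4 with 1 library left out, and 1 in sublibrary 1 alone. Krt7 and Krt78 kept their call in all 12 other processing alternatives. Krt18 turned to 0.0767 without a filter on low counts and ranged from -0.159 to 0.0838 with 1 library left out, Krt20 to 0.60 in sublibrary 8 and Krt23 to -0.18 in sublibrary 1, none called; the cause was not tested. For cells with a UMI of Mki67 or Top2a against others, 386 genes were called, 174 to 466 with 1 library left out, 193 by DESeq2, 779 with at least 2 UMIs of the cycle genes and 53 without the mouse block. There the 2 keratins called became 0 without the block, with Krt78 at -0.0275, and 0 to 3 with 1 library left out; Krt20 was 0.22 without BDL replicate 2. Alternatives added after the data were seen, leaving out subcluster 6 or the 5% of highest doublet scores, gave 3 keratins called. The main test has little power for changes under 1 on the log2 scale, and shares of cells rise with depth: unthinned, the Krt7 difference was 42.0 points against 8.35.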
